A study of Sus scrofa with 4 samples.

Results

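The solute carriers are the large superfamily of membrane proteins that move sugars, amino acids, ions, metals, vitamins and metabolites across cell membranes, and their symbols begin with SLC and a family number. They were followed here in the ileum of suckling piglets, where the study compared low with high weight gain. Members were all array genes whose RefSeq transcript matched a pig gene symbol beginning with SLC and a digit. This rule uses no measured value, but it was set with earlier results of these data known. This gave 64 of the 2389 genes that could be named in this way, read by 137 of the 43603 probes. The 64 genes were sorted by family into 11 substrate groups, and each gene was represented by its brightest probe.

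The samples were pooled total RNA from ileum slices of crossbred piglets 16 days old, born to Yorkshire × Landrace dams inseminated with Duroc semen and nursed by sows. Each of 2 low-gain arrays, a and b, carried RNA pooled from 2 piglets of low weight gain, and each of 2 high-gain arrays, a and b, carried RNA pooled from 3 piglets of high weight gain. Agilent arrays with a single dye (Cy3) were used. The series' design text speaks of weight at birth where the sample labels speak of weight gain, and the labels were followed. Nothing in the labels says whether a and b are separate pools, separate labellings or repeats of the same RNA, so the p-values below rest on the spread from array to array alone, and that spread could be purely technical. The spread among piglets cannot be seen in pools.

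In an absorptive cell, sodium is kept low, and apical carriers such as SLC5A1 for glucose use that gradient to bring nutrients in. Apical peptide and amino acid carriers take up the products of protein digestion, and a second set of carriers on the basolateral side passes sugars and amino acids to the blood. Ion exchangers of the SLC4, SLC9 and SLC26 families move sodium, chloride and bicarbonate, and so set the acidity and water content of the lumen. Other families work inside the cell, carrying metabolites into mitochondria (SLC25), zinc into vesicles (SLC30) and nucleotide sugars into the Golgi apparatus (SLC35).

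Each array held 45220 spots, of which 43803 were not controls. Between 32835 and 33972 of these non-control spots were well above background. Values are log2 processed signals minus the 75th percentile of their own array, so 0 marks that percentile; a value compares the same probe between arrays, not 1 gene with another. Low-gain array a had the widest spread between repeat spots (CV 9.04%, outside the range that the scanner software accepts, against 5.72% to 6.12%). Of 33264 tested probes, 80 (0.241%) passed the limma test at an adjusted p of 0.05. With a prior variance that follows the signal level, called the intensity trend below, 1250 (3.76%) passed. Cell type markers were read in the same fit, and 2 of them passed the main test, 1 of goblet cells and 1 of T and NK cells (0.241% of all probes passed). All 3 measured of 5 listed goblet cell markers were higher in low gain (median difference, low minus high gain, 1.57). Of 5 T and NK cell markers 4 were higher and 1 lower (median 0.95), and of 4 measured smooth muscle markers 3 were higher and 1 lower (median 0.49). The 4 measured of 5 listed skeletal muscle markers had higher means (median 0.43), but TNNT3 overlapped between groups at 0.02 ± 0.37 (SE). Of 5 adipocyte markers 3 were lower and 2 higher (median -0.96), and over the 4 that were well above background on all arrays the median was -0.38. All 3 measured of 5 listed macrophage markers were lower (median -0.41). Over the 2 that were well above background on all arrays the median was -0.33. The 2 measured of 4 listed B cell markers (median -0.12) and the 2 measured of 4 listed endothelial markers (median -0.01) each split 1 to 1. None of 5 erythrocyte markers was measured. Of 11 listed enterocyte markers 6 were measured, all well above background on the 4 arrays. Of these, 5 were higher in low gain (median 0.41), among them ANPEP (0.68), FABP2 (0.48) and APOA4 (0.44), while APOA1 was lower (-0.24). None passed the main test. Under the intensity trend ANPEP and FABP2 passed, 33.3% of the 6 against 7.88% of all named genes tested. The mean level of the 6 was 5.68 and 5.70 on the low-gain arrays against 5.28 and 5.41 on the high-gain arrays. In bulk tissue fewer cells of a type and less RNA per cell cannot be told apart, and the part of these markers in the results below was not tested.

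No solute carrier gene passed the main test. Of the 64 genes, 59 were tested and 58 were well above background on all 4 arrays. The lowest adjusted p among them was 0.110 (limma, Benjamini-Hochberg over all tested probes). At an unadjusted p under 0.05 there were 13 genes, 7 higher and 6 lower in low gain, a share of 22.0% that lies near the 21.6% of all named genes tested. The 2 low-gain arrays did not overlap the 2 high-gain arrays in 36 genes (61.0%), against 61.8% of the named genes. The mean was higher in low gain for 32 genes and lower for 27, which is 54.2% higher against 53.4% in the background. With 2 arrays against 2, an exact permutation test cannot give a two-sided p below 0.333.

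The differences of the solute carriers were of ordinary size for this array. Their median was 0.02 over all 64 genes and 0.04 over all 2389 named genes, and their median absolute difference among tested genes was 0.211 against 0.206. Differences ran from -0.92 (SLC5A10) to 0.77 (SLC26A3). None of the 59 exceeded 1 in size, where 63 of 2158 named genes (2.92%) did, and 10 (16.9%) exceeded 0.5, where 341 (15.8%) did.

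**Figure D1:**
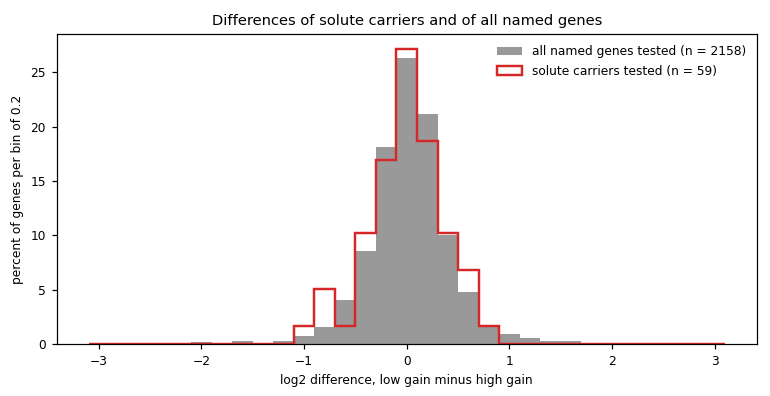
Distribution of the log2 difference, low minus high gain, as the percent of genes in bins of 0.2, for the 59 tested solute carriers (red outline) and the 2158 named genes tested (grey). The red outline follows the grey bars, with no solute carrier beyond 1 in either direction.

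Under the intensity trend 6 solute carriers passed at an adjusted p of 0.05, which is 10.2% of those tested against 7.88% of all named genes. They were SLC26A3, SLC4A4, SLC1A1, SLC7A9 and SLC44A4, higher in low gain (5.19% of named genes were called higher), and SLC5A10, lower in low gain (2.69% were called lower). None of these calls held in every fit with an array left out, and those of SLC1A1, SLC4A4 and SLC44A4 held in none. Such a fit sets 1 array against 2, and fewer probes were then called over the whole array too. Over all ways of processing tried, and with each array left out, none of the 6 differences changed sign. SLC26A3 ran from 0.37 to 0.92, SLC4A4 from 0.32 to 0.75 and SLC1A1 from 0.27 to 0.58. SLC7A9 ran from 0.45 to 0.66, SLC44A4 from 0.02 to 0.53 and SLC5A10 from -0.98 to -0.26. Counting every probe, 0 of 129 tested solute carrier probes passed the main test and 10 passed under the trend. Over all 33264 tested probes the shares were 0.241% and 3.76%. Only 12.5% of the 43603 probes on the array were named, however. Among named genes, read by the brightest probe, 7.88% passed under the trend, so the 10 probes do not stand out. Beyond the brightest probes of the 6 genes, the further 4 were a second probe of SLC7A9, 2 more of SLC44A4 and 1 of SLC22A2.

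**Figure D2:**
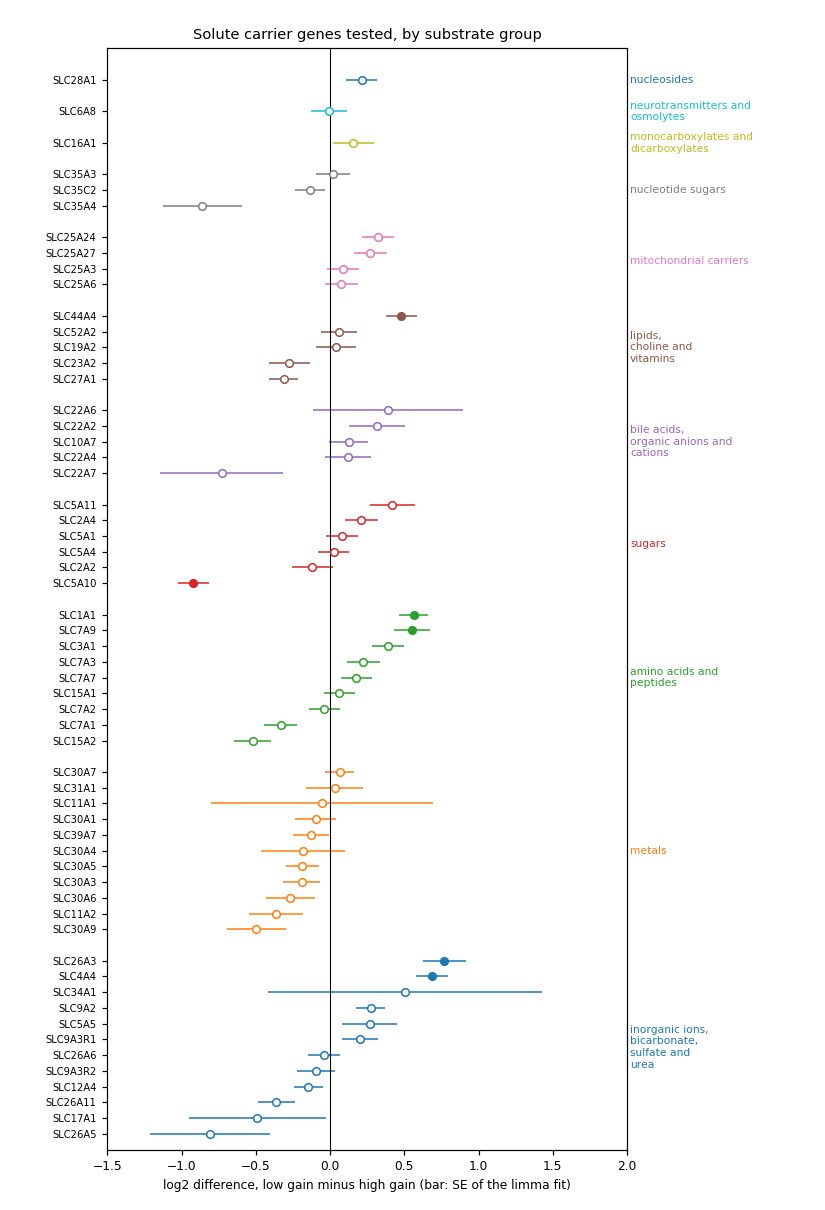
Log2 difference, low minus high gain, of the brightest probe of each tested solute carrier reported here, by substrate group, with the standard error of the limma fit as bars. Filled points mark the 6 genes called under the intensity trend; no gene was called by the main test, and all but 10 of the points lie within 0.5 of 0.

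Among the carriers of amino acids and peptides, all 9 genes were tested; 6 were higher and 3 lower in low gain, and the median difference was 0.18. SLC1A1, the apical transporter of glutamate and aspartate, read 1.42 and 1.41 on the low-gain arrays and 0.84 and 0.87 on the high-gain arrays. The pairs lay far apart for their spread. The difference was 0.57 ± 0.10 (SE, n = 2 arrays per group), 1.48-fold, with an adjusted p of 0.161 (limma) and 0.0243 under the intensity trend. Its other 3 probes were dimmer and gave 0.13 to 0.19, so the size rests on the brightest probe.

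SLC7A9 and SLC3A1 form the light and heavy subunits of the brush border exchanger that takes up cystine and dibasic amino acids. SLC7A9 read 4.0 and 3.97 in low gain against 3.33 and 3.54 in high gain. Its difference was 0.55 ± 0.12 (SE, n = 2 arrays per group; adjusted p 0.190 by limma, 0.0313 under the intensity trend), and its second probe gave 0.42. SLC3A1 read 2.92 and 3.07 in low gain against 2.60 and 2.61 in high gain, a difference of 0.39 ± 0.11 (SE) that passed neither fit (limma adjusted p 0.217 and 0.0558). Both subunits were thus higher on both low-gain arrays than on either high-gain array. Counting both directions, the groups did not overlap in 61.8% of all named genes tested. Of the other SLC3A1 probes, 1 gave 0.35 and the dimmer ones gave 0.03 and -0.20.

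SLC7A7, the light subunit of the basolateral exchanger that releases dibasic amino acids to the blood, read 4.64 and 4.71 in low gain against 4.55 and 4.46 in high gain. The groups did not overlap, but the difference of 0.18 had a 95% interval from -0.11 to 0.46. Its other 3 probes all lay below the brightest, at 0.16, -0.12 and, for the dimmest, -0.59 ± 0.27 (SE). SLC7A1, a cationic amino acid transporter of many cell types, lay on the other side, with 4.24 and 4.26 in low gain against 4.50 and 4.66 in high gain. That difference was -0.33 ± 0.11 (SE; limma adjusted p 0.253), and the second probe gave -0.37.

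The peptide transporters also differed in sign. SLC15A1, the proton-coupled carrier of di- and tripeptides in the intestinal brush border, read 1.01 and 0.95 in low gain against 0.87 and 0.97 in high gain. These values overlapped, and the interval of the difference ran from -0.23 to 0.35. SLC15A2, the high-affinity peptide transporter best known from kidney, read -1.22 on both low-gain arrays against -0.59 and -0.81 in high gain. It was lower in low gain by a log2 difference of -0.52 ± 0.12 (SE; limma adjusted p 0.196), with -0.37 for its second probe. SLC7A3 (0.23) and SLC7A2 (-0.04), the remaining cationic amino acid transporters measured, did not pass.

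**Figure D3:**
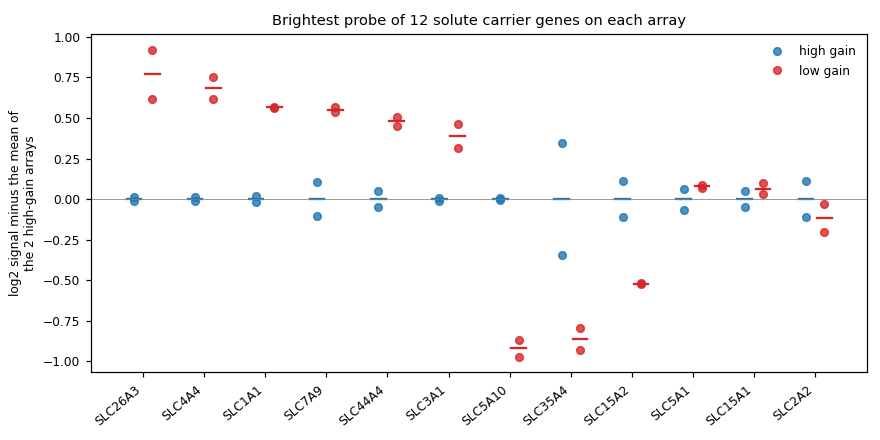
Log2 signal of the brightest probe of 12 solute carriers on each of the 4 arrays, minus the mean of the 2 high-gain arrays of that gene (blue, high gain; red, low gain; dashes, group means). The red points of SLC26A3, SLC4A4, SLC1A1, SLC7A9, SLC44A4 and SLC3A1 lie above all blue points, and those of SLC5A10, SLC35A4 and SLC15A2 lie below them. Those of SLC5A1, SLC15A1 and SLC2A2 lie nearer 0, although both of SLC5A1 lie just above its blue points.

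The sugar carriers of absorption gave differences near 0. SLC5A1, the sodium-coupled glucose and galactose transporter of the brush border, read 4.56 and 4.54 in low gain against 4.40 and 4.53 in high gain. Its difference was 0.08 ± 0.11 (SE), with a 95% interval from -0.22 to 0.38. Probes next in brightness gave 0.07 each, and the dimmest gave -0.63. SLC2A2, the basolateral glucose and fructose carrier, read -1.98 and -1.80 against -1.66 and -1.88, and the groups overlapped (-0.12 ± 0.14, SE). SLC5A4, a close relative of SLC5A1, gave 0.03; probes for relatives this similar may pick up each other's transcripts.

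SLC5A10, a mannose and fructose transporter best known from kidney, had the largest difference at the brightest probe of any solute carrier. It read -0.15 and -0.05 in low gain against 0.82 and 0.83 in high gain, a clear gap with tight pairs. The difference was -0.92 ± 0.10 (SE, n = 2 arrays per group; adjusted p 0.110 by limma and 0.00794 under the intensity trend), 1.89-fold. Its second probe went the other way, with 0.41 ± 0.27 (SE) and no call. SLC5A11, which carries myo-inositol, read 0.55 and 0.22 against -0.02 and -0.05, a difference of 0.42 ± 0.15 (SE; limma adjusted p 0.272). SLC2A4, the insulin-responsive glucose carrier of muscle and fat, gave 0.21, with -0.13 and 0.25 for its other probes.

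In the group for inorganic ions, 12 of 13 genes were tested, 6 higher and 6 lower. SLC26A3, the apical chloride and bicarbonate exchanger of the lower intestine, read 0.91 and 0.61 in low gain against 0.00 and -0.02 in high gain. The low-gain arrays differed from each other by more than the high-gain arrays did, yet both lay above them. The difference was 0.77 ± 0.14 (SE, n = 2 arrays per group; adjusted p 0.170 by limma and 0.0302 under the intensity trend), 1.71-fold, and the second, dimmer probe gave 0.41.

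SLC4A4, the basolateral sodium bicarbonate cotransporter, read -0.51 and -0.37 in low gain against -1.11 and -1.14 in high gain. Its difference was 0.69 ± 0.11 (SE, n = 2 arrays per group; adjusted p 0.154 by limma and 0.0322 under the intensity trend), 1.61-fold. No second probe was available to set beside it. SLC9A2, a sodium and proton exchanger of the gut epithelium, gave 0.27 with -0.21 for its second probe. SLC26A6, another apical anion exchanger, gave -0.04, and SLC26A11, which carries sulfate, gave -0.36 (second probe -0.68).

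Other members of the ion group were dim or unsteady. SLC26A5, the motor protein of cochlear hair cells, read -5.64 and -4.53 in low gain against -4.26 and -4.30 in high gain, so its difference of -0.81 ± 0.40 (SE) came largely from low-gain array a. SLC34A1, the phosphate carrier of the kidney tubule, read -2.68 and -4.94 against -3.68 and -4.96, a spread within each group larger than its difference of 0.51 ± 0.92 (SE). SLC17A1 was well above background on 3 of 4 arrays (-0.49), and SLC12A4, a potassium chloride cotransporter, gave -0.15. SLC5A5, the iodide carrier, gave 0.27. SLC9A3R1 (0.20) and SLC9A3R2 (-0.10) share the prefix but are scaffold proteins that anchor ion exchangers at the apical membrane, not carriers.

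Among lipid, choline and vitamin carriers, SLC44A4, a choline transporter-like protein that carries thiamine pyrophosphate, read 6.36 and 6.30 in low gain against 5.80 and 5.90 in high gain. The difference was 0.48 ± 0.10 (SE, n = 2 arrays per group; adjusted p 0.188 by limma and 0.0281 under the intensity trend), 1.39-fold. Its probes fell into 2 kinds. The 3 bright probes gave 0.43 to 0.58, while the 2 dim ones gave -0.74 ± 0.24 and -0.64 ± 0.31 (SE), so the mean over all 5 was 0.02. It was the only member whose tested probes lay beyond 0.5 on both sides of 0.

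The other carriers of that group did not pass. SLC27A1, a fatty acid transport protein, read -0.21 and -0.18 in low gain against 0.15 and 0.08 in high gain, a difference of -0.31 ± 0.10 (SE; limma adjusted p 0.240), and its dimmer probes gave -0.57 and -0.39. SLC23A2, a vitamin C transporter, gave -0.27. SLC52A2 for riboflavin (0.06) and SLC19A2 for thiamine (0.04) stayed within the spread of the arrays.

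**Figure D4:**
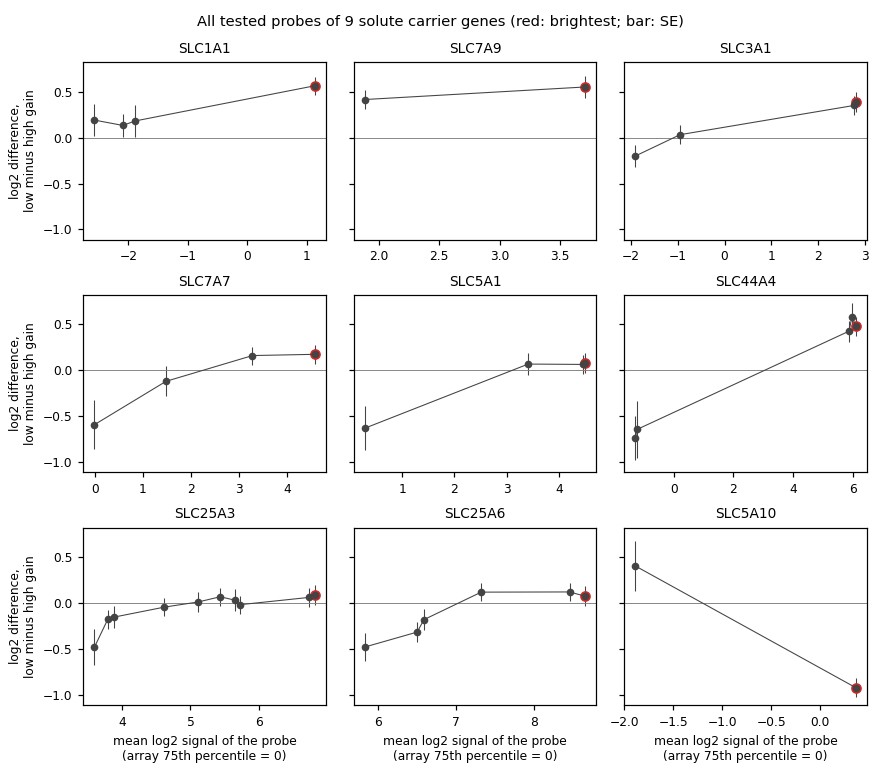
All tested probes of 9 solute carriers, with the log2 difference, low minus high gain, and its standard error against the probe's own mean log2 signal (red ring, brightest probe). In 8 of the 9 genes the dimmest probe lies below the brightest, and in SLC5A10 it lies above.

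The metal carriers mostly read lower in low gain: 9 of the 11 tested were lower and 2 higher (median -0.18), where 53.4% of all named genes were higher. None passed the main test or the intensity trend, and none had an unadjusted p under 0.05. SLC11A2, the apical carrier of ferrous iron, read -1.26 and -1.11 in low gain against -0.62 and -1.03 in high gain. Its difference was -0.36 ± 0.18 (SE; limma adjusted p 0.368), with -0.51 for its second probe. SLC30A9, counted among the zinc carriers, read -0.19 and 0.09 against 0.65 and 0.24 (-0.50 ± 0.20, SE), and its second probe gave 0.27.

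High-gain array a gave the highest of the 4 values in 8 of these 11 metal carriers. Over all named genes it did so in 25.3%. Without that array 6 of the 11 were lower and 5 higher, and the median was -0.10; leaving out any other array kept 7 to 10 of them lower. The other zinc carriers of the SLC30 family ran between -0.27 (SLC30A6, second probe -0.68) and 0.06 (SLC30A7), with SLC30A3 at -0.19, SLC30A5 at -0.19, SLC30A4 at -0.18 and SLC30A1 at -0.10. SLC39A7, which releases zinc from the secretory pathway, gave -0.13 and SLC31A1, the copper importer, gave 0.03.

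Organic ion carriers, 5 of 7 tested, gave no call at the brightest probe. SLC22A7, an organic anion transporter best known from liver and kidney, read -2.34 and -2.66 in low gain against -1.23 and -2.32 in high gain. The difference of -0.73 ± 0.41 (SE) rested on high-gain array a. SLC22A6 read -0.43 and 0.23 against 0.12 and -1.11 and overlapped between groups (0.39 ± 0.50, SE). SLC22A2, an organic cation transporter, gave 0.32 ± 0.19 (SE) with its brightest probe. A dimmer probe of it read -4.10 and -4.12 in low gain against -5.87 and -5.38 in high gain, with a difference of 1.52 ± 0.20 (SE; adjusted p 0.132 by limma and 0.0490 under the intensity trend). That was the largest difference of any tested solute carrier probe. SLC22A4 gave 0.12 and SLC10A7 gave 0.13.

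The tested mitochondrial carriers showed small differences at the brightest probe. SLC25A3, the mitochondrial phosphate carrier, read 6.87 on both low-gain arrays against 6.71 and 6.85 (0.08 ± 0.11, SE), and its 10 probes ran from -0.48 to 0.08. SLC25A6, an ADP and ATP exchanger whose probes may also bind close relatives, gave 0.08 with a range of -0.48 to 0.12 over 6 probes. SLC25A24, a carrier of ATP with phosphate, read -1.74 and -1.84 against -2.05 and -2.17, a difference of 0.32 ± 0.11 (SE; limma adjusted p 0.260). SLC25A27 gave 0.27.

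SLC35A4, an orphan member of the nucleotide sugar family, read -2.82 and -2.68 in low gain against -1.54 and -2.24 in high gain. Both low-gain values lay below both high-gain values, and high-gain array a stood apart from its partner. The difference was -0.86 ± 0.27 (SE; limma adjusted p 0.235, 0.109 under the intensity trend), and its second probe gave -0.88. SLC35C2 gave -0.13 and SLC35A3, a carrier of UDP-N-acetylglucosamine, gave 0.02. Single members stood for the remaining groups: SLC16A1 for lactate and short-chain fatty acids (0.16), SLC28A1 for nucleosides (0.21, second probe -0.31) and SLC6A8 for creatine (-0.01).

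Of the 64 members, 5 were too dim to test. Among these, SLC22A13, SLC22A8 and SLC30A2 were not well above background on any array, and SLC25A25 was so on 1 array. Of 22 textbook carriers of the ileal brush border and basolateral side, 10 were among the members; the other 12, such as the ileal bile acid transporter SLC10A2, are not analysed here.

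None of the proteins that work beside the carriers passed. Of 20 such partners measured out of 31 listed, 8 were higher and 12 lower in low gain (median -0.04). The 20 include the scaffold proteins SLC9A3R1 and SLC9A3R2, which are also counted among the solute carriers. There were 0 calls in the main test and under the intensity trend. An unadjusted limma p under 0.05 was seen in 4 (20.0%), near the 21.6% of all named genes tested. ATP1B1, a subunit that brings an ion pump to the membrane, gave 0.33. BSG, which carries SLC16A1 to the membrane, read 0.92 and 0.91 in low gain against 0.98 and 0.87. The chloride channel CFTR gave -0.08 and the ileal bile acid binding protein FABP6 gave 0.02. For iron, the transferrin receptor TFRC gave -0.60 and the ferric reductase CYBRD1 gave -0.55, neither of which passed. The water channel AQP1, a gene of vessels as well, gave -0.82.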

How the data were processed

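The authors deposited Agilent Feature Extraction (version 10.7.3.1) files with each spot's processed signal as an intensity on a linear scale, background-subtracted by that software per the file headers. The authors' deposited value table holds log2 values with column medians of 5.59 to 5.67 and slopes of 1.00 to 1.01 on the log2 processed signals; its normalization was not given in the sources used, and it served as an alternative.

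The log2 processed signals, less the 75th percentile of all non-control spots on the same array, were averaged over spots of a probe. Probes missing on an array (48) were dropped, and 33264 of 43603 were tested, those well above background on both arrays of a group. limma 3.58.1 (R 4.3.3) fitted low minus high gain to all tested probes, with Benjamini-Hochberg adjustment and 4.02 degrees of freedom in all; the script was tested on simulated data. Of 5779 probes with a RefSeq accession, 5461 were named (gene table of the Sscrofa 11.1 assembly). The arrays shared 1 slide and 1 scan time. No spot was saturated. The files name no genome build, and neither coordinates nor probe sequences were used.

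The members and lists were chosen with earlier results of these data known. Genes described by array values were up to 4 per substrate group with the largest differences, those called, textbook ileal carriers and those with opposed probes; others are given by their difference. A few genes of the lists are counted but not reported here by name. The labels do not say what arrays of the same letter share, so a and b were not treated as pairs, and the letter as a block was an alternative. Deviations from the group means correlated between arrays of the same letter at r = -0.029 over probes, which does not describe single genes. Precision is limited by the 4 arrays.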

Additional observations from a re-analysis of the deposited data

How the results depend on the processing

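With 2 arrays a group, counts of calls depended on the variance model and the filter. Against 80 probes past the test, there were 163 with median centring, 1047 with normexp on each array's median background, 1250 with the intensity trend, 12 with no filter on dim probes, and 0 with normexp on local background (which left 0 probes at an unadjusted p under 0.05 as well), with the filter on all 4 arrays, or with the letter as a replicate block; leaving out each array gave 0 to 37. Quantile normalization gave 69 and the deposited values 99. Of the 80, 32 were higher and 48 lower; the split was 633 to 414 with normexp on the median background, 751 to 499 with the trend, and 3 to 9 with no filter. For solute carriers the count was 0 except with normexp on the median background (5: SLC7A9, SLC5A10, SLC1A1, SLC4A4, SLC26A3) and the trend (6); the replicate block gave 0. With the trend, further alternatives were chosen after seeing the data. The filter on all 4 arrays gave the same 6 genes. With an array left out fewer were called, as over all probes. The cause was not tested. The median over solute carriers (0.02) was -0.068 with the mean over probes, and -0.10 to 0.042 with an array left out. Of 504 values for 36 genes, 22 in 12 genes changed sign, all of them without a call. With the mean over probes these were SLC10A7 (-0.11), SLC15A1 (-0.0089), SLC25A3 (-0.060), SLC28A1 (-0.050), SLC35A3 (-0.048), SLC52A2 (-0.075), SLC5A1 (-0.10) and SLC7A7 (-0.093). With normexp on local background they were SLC16A1 (-0.0079), SLC34A1 (-0.17), SLC35A3 (-0.067) and SLC52A2 (-0.0043). SLC35A3 also gave -0.044 with the median background and -0.069 with the deposited values. With an array left out, SLC22A6 ranged from -0.23 to 1.01, SLC34A1 from -0.62 to 1.64, SLC35A3 from -0.068 to 0.11, SLC52A2 from -0.043 to 0.17 and SLC6A8 from -0.11 to 0.093.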

Other observations

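Probes of the same gene gave differences that depended on how bright they were. Among 38 solute carriers with at least 2 tested probes, the dimmest probe's difference lay below the brightest's in 28 (73.7%), with a median gap of -0.18. The 1128 other named genes with several probes showed the same, with 819 below (72.6%) and a median gap of -0.15. Where the dimmest probe was over 8-fold dimmer, the median gap was -0.32 in 18 solute carriers and -0.36 in 433 other genes. The gap was wider against high-gain array a than against high-gain array b. In the solute carriers its median against high-gain array a was -0.35 (low-gain array a) and -0.34 (low-gain array b). Against high-gain array b it was -0.03 and -0.10. The cause was not tested. Between the 2 high-gain arrays, which share a group, the dimmest probe's a minus b difference lay above the brightest's by a median of 0.28 in the solute carriers and 0.15 in the other genes, whereas between the 2 low-gain arrays the median was -0.05 and 0.00. Against high-gain array a, the other genes' median gap was -0.23 (low-gain array a) and -0.21 (low-gain array b), and against high-gain array b -0.08 and -0.09. With normexp it was -0.08.

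SLC11A1, the divalent metal carrier of macrophage phagosomes, read 0.19 on low-gain array a and -0.08 on high-gain array a, but -1.59 and -1.20 on the b arrays. SLC34A1 also read higher on both a arrays (-2.68 and -3.68) than on both b arrays (-4.94 and -4.96). In both genes the letters differed by more than 1 in each group while the groups overlapped. The second SLC11A1 probe, which was dimmer, ran only from -3.77 to -3.53.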
